A study of Mus musculus with 6 samples.

Results

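Cycling nuclei of the rd10 mouse retina were examined by single-nucleus RNA sequencing (snRNA-seq), in which the messages of each nucleus are counted as unique molecular identifiers (UMIs). A nucleus was called cycling when at least 3 of 8 genes of DNA replication and mitosis, namely Top2a, Mki67, Neil3, Kif23, Esco2, Cenpf, Knl1 and Shcbp1, each had a UMI in it. Nuclei were kept above 500 UMIs, from 200 genes upward and below 5% mitochondrial UMIs. Of the 56205 that remained, 111 met the rule (0.197%). Each cycling nucleus was given a cell type from marker genes and compared with non-cycling nuclei of the same type. Of the 111 cycling nuclei, 76 were microglia, 17 were ciliary-like nuclei (marked by Frmpd4 and Fbln1), 7 carried lymphocyte markers, 3 were Muller glia and 8 received no type. The group was therefore for the most part microglial, and few nuclei were assigned to Muller glia. Ciliary-like nuclei were counted apart from Muller glia here, whereas the paper reports Frmpd4 and Fbln1 as raised in a subpopulation of Muller glia.

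All mice carried the rd10 allele of Pde6b, the rod phosphodiesterase gene whose loss of function causes inherited photoreceptor degeneration (strain B6.CXB1-Pde6b-rd10/J). Retinas received an intravitreal injection of saline or of recombinant IL-27, a cytokine of the interleukin-12 family, on postnatal day 18 and were collected on postnatal day 20. There were 3 libraries in the saline group (replicates 1, 2 and 6) and 3 in the IL-27 group (replicates 4, 5 and 10). Only 1 eye of a mouse was injected, and no uninjected or wild-type retina was analysed here, so that every comparison with saline is made among injected, degenerating retinas. The labels do not say whether the 3 libraries of a group came from separate animals, and if they did not, p-values measure only the spread between these libraries.

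A dividing cell first copies its DNA (S phase) with origin-licensing factors, polymerases and repair proteins. It then condenses its chromosomes, builds a spindle, attaches kinetochores and cleaves into daughter cells (G2 and M phases, or G2/M). Transcription of S-phase genes is driven by E2F factors, whereas many G2/M genes carry a CHR element (cell cycle genes homology region) and CCAAT boxes in their promoters, bound by MuvB complexes and NF-Y. Microglia, the resident macrophages of the retina, are known to proliferate and to engulf dying photoreceptors during degeneration. Muller glia, the radial glia that span the retina, regenerate neurons in fish but seldom divide in mammals.

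The 6 libraries were alike in size, with 8868 to 9885 nuclei each after filtering. Among the kept nuclei, 367 cell barcodes occurred in 2 or more libraries, and none of the 111 cycling nuclei carried such a barcode. The cycling nuclei had from 887 to 42583 UMIs. Intervals given below are exact (Clopper-Pearson) 95% intervals and cover counting error only.

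Of the 56205 nuclei, 54765 had none of the 8 genes, 1276 had 1 and 53 had 2, whereas 10 had 3, 23 had 4, 23 had 5, 26 had 6, 20 had 7 and 9 had all 8. The number of nuclei thus fell up to 3 genes and rose again beyond it. The 10 nuclei just inside the rule held a median of 4 UMIs of the 8 genes (range, 3 to 5), and 8 of them were microglia. The 53 nuclei just outside it held a median of 2 such UMIs (range, 2 to 11). Of these, 20 were microglia and 13 lay in neuronal clusters. These values chose the members and are given as a description.

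**Figure D1:**
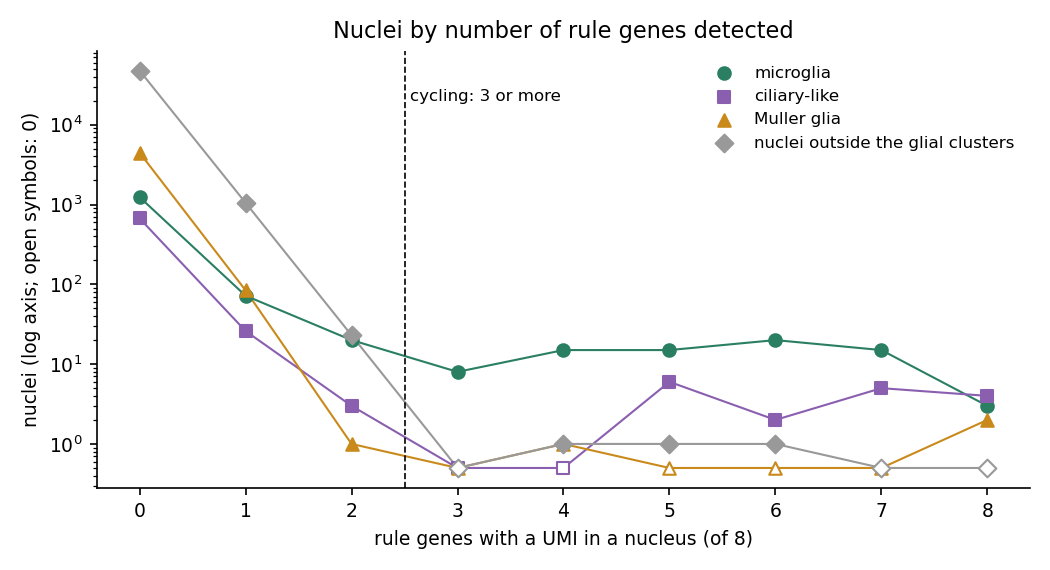
Number of nuclei (log axis) by the number of the 8 rule genes with a UMI, for microglia, ciliary-like nuclei, Muller glia and nuclei outside the glial clusters (open symbols stand for 0), with the threshold of the rule as a dashed line. Nuclei outside the glial clusters fall from 47585 with none of the genes to 23 with 2 and 0 with 3, and number 1 at each of 4, 5 and 6. Microglia number 15 to 20 at each of 4 to 7 genes.

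In the 76 cycling microglia, Top2a, which untangles replicated DNA, was detected most often, in 73 nuclei. Knl1, a scaffold of the kinetochore, was found in 62 nuclei and the proliferation antigen Mki67 in 60. Neil3, a DNA glycosylase, was found in 55. Kif23, the kinesin of the central spindle, was found in 45 and the centromere protein Cenpf in 43. Esco2, which acetylates cohesin in S phase, was found in 37 and Shcbp1, a midbody protein, in 33. A cycling microglial nucleus held a median of 12 UMIs of the 8 genes (range, 3 to 37).

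The promoters of 6 of the 8 rule genes could be read from RefSeq (GRCm38.p6, 250 bases before to 50 after the start site). Stretches of 4 of them are shown, chosen because they hold both a CHR match and a CCAAT box. Knl1 held a CHR match and no CCAAT box, and Neil3 held neither. Capitals mark the CHR letters TTTGAA, which read TTCAAA where they lie on the opposite strand, and the CCAAT box, which reads ATTGG where it lies on the opposite strand. The motifs do not overlap one another in these windows. The first 4 sequences belong to rule genes on the minus strand, read 5′ to 3′ on that strand at chr11:99024190-99024299, chr7:135716465-135716574, chr1:189688078-189688221 and chr9:61946791-61946839. The last belongs to Kif11, the kinesin that pushes spindle poles apart and that the rule did not use, on the plus strand at chr19:37376312-37376381.
Top2a: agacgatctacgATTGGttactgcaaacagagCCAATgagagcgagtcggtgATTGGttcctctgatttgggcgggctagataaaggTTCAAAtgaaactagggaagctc
Mki67: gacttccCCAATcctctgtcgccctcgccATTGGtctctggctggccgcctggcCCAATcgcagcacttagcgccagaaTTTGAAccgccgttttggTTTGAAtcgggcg
Cenpf: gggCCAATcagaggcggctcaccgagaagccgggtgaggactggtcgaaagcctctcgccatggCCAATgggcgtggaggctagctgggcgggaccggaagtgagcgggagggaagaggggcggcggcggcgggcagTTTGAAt
Kif23: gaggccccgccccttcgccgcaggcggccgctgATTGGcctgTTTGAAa
Kif11: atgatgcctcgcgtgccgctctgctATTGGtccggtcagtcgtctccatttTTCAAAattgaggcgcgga

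In the 4 rule-gene promoters shown, a CCAAT box precedes each CHR match. CCAAT was present on either strand in 4 of the 6 readable rule-gene promoters. TTTGAA was present on either strand in 5 of the 6 readable rule-gene promoters, against 17.9% of all 32851 promoters of the same length. Among the fixed list of G2/M genes, 33 of 47 genes with a promoter in the table held it (70.2%), compared with 6 of 31 S-phase genes (19.4%) and 20.2% of all 27025 genes. In the cytokinesis list 9 of 11 genes held it. CCAAT was common to both phases, in 36 of 47 G2/M genes and 22 of 31 S-phase genes (71.0%), against 41.1% of all genes. The E2F letters GGCGGGAA were found, in turn, in 7 of 31 S-phase genes and 1 of 47 G2/M genes, against 2.52% of all genes. They were in 0 of the 6 readable rule-gene promoters. A match of letters is a description and not evidence of binding.

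Microglia made up 68.5% of all cycling nuclei although they were 1405 of the 56205 nuclei. Of the 1405 microglia, 76 were cycling (5.41%, interval 4.29 to 6.72). The share was 2.37% among ciliary-like nuclei (17 of 716, interval 1.39 to 3.77) and 0.0661% among Muller glia (3 of 4541, interval 0.0136 to 0.193). As a check of the label, a separate list of microglial genes stood at 64.2 UMIs per 10,000 in cycling and 81.7 in non-cycling microglia, and all 76 cycling microglia held a UMI of it. The sum alone does not separate microglia from other leukocytes, as it stood at 61.9 in the 7 cycling lymphocyte-marked nuclei. There 10 of its 15 genes were at 0, P2ry12, Tmem119, C1qb and Aif1 among them, and in cycling microglia none was. Genes at 0 do not separate the types either, since 7 nuclei form a much smaller pool than 76. In the 47 non-cycling lymphocyte-marked nuclei the list stood at 68.3, and 14 of its 15 genes had a UMI, all but Tmem119. Of 54 nuclei with lymphocyte markers, 7 were cycling (13%). No cycling nucleus was found among 224 endothelial nuclei, which allows a share of up to 1.63% by the exact interval (1.34% by the limit of 3 counts in 224). In neuronal clusters, which serve as a background since retinal neurons no longer divide, 2 of 37200 nuclei met the rule (0.00538%). Of these, 1 lay in the horizontal and 1 in the ganglion cluster, and none was among 13326 rods, 3507 cones, 9668 bipolar or 7840 amacrine nuclei. By markers alone the first (20512 UMIs, 2 of them Csf1r) was typed as microglia, and it was among the predicted doublets. The second (19788 UMIs) was typed as Muller glia by markers and held 16 UMIs of lymphocyte genes. The type of both is therefore uncertain. The median depth was 3255 UMIs in neuronal clusters, 2387 in microglia, 3804 in ciliary-like nuclei and 4435 in Muller glia. When every nucleus was thinned to 1000 UMIs, 34 of 1368 microglia, 8 of 713 ciliary-like nuclei, 2 of 4533 Muller glia and 0 of 34521 neuronal nuclei still met the rule.

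Within each library the microglial share exceeded the Muller share and the ciliary-like share. The mean difference from Muller glia was 5.64 ± 2.90 percentage points (SD, n = 6 libraries) and was above 0 in 6 of 6 libraries. Relative to ciliary-like nuclei the difference was 4.01 ± 2.0 points. That difference is uncertain, because IL-27 replicates 4 and 5 held 10 and 5 ciliary-like nuclei, whose shares of 0 have exact upper limits of 30.8% and 52.2%. The ciliary-like share exceeded the Muller share in 4 of 6 libraries, by 1.63 ± 1.82 points on average. These comparisons were chosen after the shares were seen, so they are given as a description with no p.

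In the saline group, cycling microglia numbered 16 of 248 in replicate 1 (6.45%, interval 3.73 to 10.3), 6 of 201 in replicate 2 (2.99%, 1.10 to 6.38) and 9 of 202 in replicate 6 (4.46%, 2.06 to 8.29). In the IL-27 group they numbered 10 of 251 in replicate 4 (3.98%, 1.93 to 7.2), 19 of 358 in replicate 5 (5.31%, 3.23 to 8.16) and 16 of 145 in replicate 10 (11.0%, 6.44 to 17.3). The groups overlapped, and IL-27 replicate 10 was the highest of the 6 libraries while holding the fewest microglia. The mean share was 4.63% ± 1.74 with saline and 6.78% ± 3.75 with IL-27 (SD, n = 3 each), a difference of 2.14 points that was within the spread between libraries (two-sided exact permutation test, p = 0.6; 3 against 3 libraries cannot go below 0.1). Without IL-27 replicate 10 the difference was 0.015 points, without IL-27 replicate 4 it was 3.54 and without saline replicate 2 it was 1.32. It was 0.54 points with nuclei thinned to 1000 UMIs and 1.19 with types from clusters alone. Across all nuclei, the cycling share was 0.187% ± 0.0695 with saline and 0.207% ± 0.0624 with IL-27 (n = 3 each, exact permutation p = 0.8), with 53 and 58 cycling nuclei in all. Fewer cells of a type and fewer nuclei recovered from it cannot be told apart in such shares.

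For Muller glia, 1 of 882, 1 of 753 and 0 of 752 nuclei were cycling in saline replicates 1, 2 and 6, and 1 of 773, 0 of 783 and 0 of 598 in IL-27 replicates 4, 5 and 10. A difference in Muller glia was not detectable at these numbers (exact permutation p = 0.7, n = 3 each). Among ciliary-like nuclei, 5 of 245, 6 of 238 and 1 of 112 were cycling in the saline libraries. In the IL-27 libraries these nuclei were scarce in replicates 4 and 5, with 0 of 10 and 0 of 5 cycling, and 5 of 106 were cycling in replicate 10. All 5 cycling ciliary-like nuclei of the IL-27 group thus came from 1 library. Predicted doublets made up 5 of the 17 cycling (29.4%) and 77 of the 699 non-cycling ciliary-like nuclei (11.0%). Without them, 3 of 94 were cycling in IL-27 replicate 10. No p is given for a difference between treatments, since 0 of 10 and 0 of 5 allow exact upper limits of 30.8% and 52.2%.

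**Figure D2:**
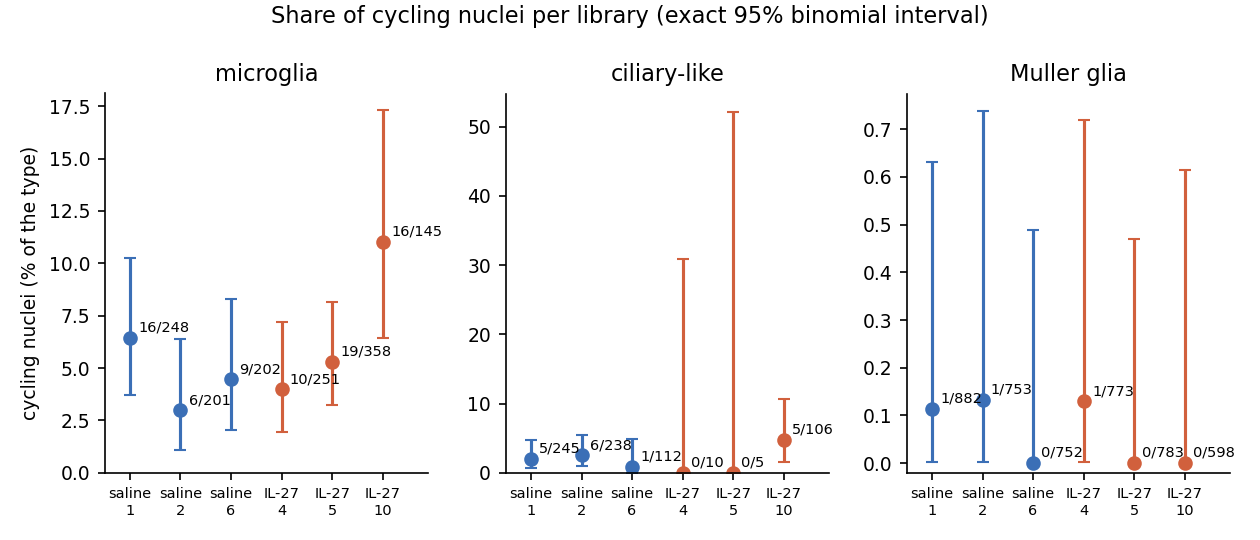
Percentage of nuclei that were cycling in each library, by cell type, for saline and IL-27, with exact 95% intervals for counting error and the numbers of nuclei beside each point. The 3 panels have separate axes. Microglial shares run from 2.99 to 11.0% and overlap between the groups, and Muller shares lie near 0.

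The cycling nuclei were placed along the cycle by summing UMIs of fixed S-phase and G2/M gene lists without the rule genes. Of the 76 cycling microglia, 61 held more G2/M than S UMIs and 15 held more S than G2/M UMIs. The balance was 10 to 7 in ciliary-like nuclei, 5 to 2 in nuclei with lymphocyte markers and 2 to 1 in Muller glia. Most of the 8 rule genes peak in G2/M, so that nuclei in early S phase are less likely to enter the group. In cycling microglia the S level ranged from 21.2 to 35.5 UMIs per 10,000 over the 6 libraries and from 7.43 to 10.3 in non-cycling microglia. The G2/M level ranged from 36.3 to 83.5 per 10,000 in cycling and from 9.12 to 10.3 in non-cycling microglia. Neither pair of ranges overlapped, and saline replicate 2 had the lowest G2/M level of the cycling sums. Phase genes travel with the rule genes, so no test is given for this contrast.

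Between treatments the phase of the cycling microglia did not separate the libraries. The S level was 24.2 ± 4.94 per 10,000 with saline and 29.6 ± 6.39 with IL-27 (n = 3 each, exact permutation p = 0.2), and the G2/M level was 67.5 ± 27.1 and 71.2 ± 8.70 (exact permutation p = 1, n = 3 each). Nuclei with more S than G2/M UMIs made up 11.8% ± 10.3 of cycling microglia with saline and 22.2% ± 11.1 with IL-27 (n = 3 each, exact permutation p = 0.4).

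**Figure D3:**
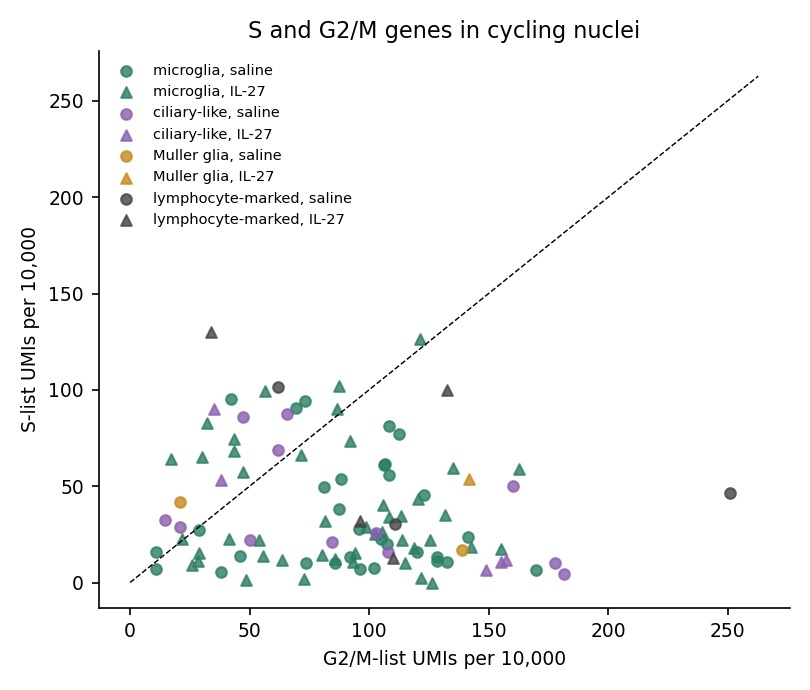
S-phase against G2/M UMIs per 10,000, without the rule genes, in each cycling nucleus that received a type, coloured by type, with circles for saline and triangles for IL-27. Points below the dashed line of equal levels, 61 of 76 microglia, held more G2/M than S UMIs.

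Gene expression in cycling microglia was compared with that in non-cycling microglia of the same library by summing UMIs over the 76 and the 1329 nuclei. Levels are given as CPM (counts scaled to an equal total in each sum). Since counts come from the 3′ ends of messages and, in nuclei, also from introns, CPM values are compared between states of 1 gene and not between genes. Of 5123 genes tested with edgeR, 257 passed an adjusted p of 0.05 (5.02%), with 179 higher (3.49%) and 78 lower (1.52%) in cycling microglia. Genes of the cell-cycle lists are expressed together with the rule genes, so they are described first by their values and by counts of calls, from which nothing is read.

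Of 81 tested genes on the cell-cycle lists, 60 were among the 179 higher genes and none was among the lower ones. Since the members were picked on genes expressed with these, nothing is read from that share. The median log2 difference was 1.77 for the S-phase list (7 of 12 tested genes higher) and 4.52 for the G2/M list (24 of 26). It was 5.05 for the spindle (13 of 14), 4.99 for cytokinesis (7 of 7), 4.32 for mitotic kinases and the checkpoint (6 of 6) and 4.17 for the kinetochore (7 of 7). Condensin and chromosome structure had a median of 3.20 (6 of 8) and replication fork repair and cohesion of 2.35 (8 of 9). Over all 5123 genes the median was -0.02.

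Among replication genes, Atad2, a chromatin-binding ATPase of S phase, measured 279, 217 and 214 CPM in cycling microglia of saline replicates 1, 2 and 6 and 270, 342 and 402 CPM in IL-27 replicates 4, 5 and 10. In non-cycling microglia it ranged from 35.5 to 73.1 CPM (log2 difference 2.53 ± 0.24 SE). Brip1, a helicase of fork repair, ranged from 167 to 324 CPM in cycling and from 10.7 to 28.9 CPM in non-cycling microglia (log2 difference 3.34 ± 0.25). Pola1, the catalytic subunit of the polymerase that primes DNA synthesis, had a log2 difference of 1.73 ± 0.23. Ezh2, the methyltransferase that marks lysine 27 of histone H3, was higher by 2.35 ± 0.21.

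Among mitotic genes, Kif11 measured 400, 167 and 190 CPM in cycling microglia of saline replicates 1, 2 and 6 and 287, 331 and 259 CPM in IL-27 replicates 4, 5 and 10, against 3.19 to 8.27 CPM in non-cycling microglia (log2 difference 5.63 ± 0.33). Kif4, a chromosome-bound kinesin, ranged from 134 to 438 CPM against 0 to 12.3 CPM (log2 difference 5.96 ± 0.51). Cenpe, the kinesin of the kinetochore, ranged from 66.8 to 642 CPM against 3.19 to 18.5 CPM. The checkpoint kinases Ttk and Bub1 differed by 5.79 ± 0.46 and 5.97 ± 0.49 on the log2 scale and Bub1b by 4.09 ± 0.36. For cytokinesis, the formin Diaph3 ranged from 284 to 785 CPM against 26.2 to 62.4 CPM, and the central spindle bundler Prc1 from 83.5 to 311 CPM against 1.38 to 8.45 CPM. Saline replicate 2 had the lowest cycling value for Kif11, Kif4, Cenpe, Diaph3 and Prc1. In that library, 1 of 6 nuclei supplied 42583 of the 59848 summed UMIs (71.2%), and in IL-27 replicate 4 the largest nucleus supplied 42.3%, against 14.5 to 22.8% in the others.

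Regulators of the G1 to S decision had mixed values. Ccne2, the cyclin that starts S phase, had a log2 difference of 2.38. Ccnd3, a D-type cyclin, had a log2 difference of -0.93 ± 0.34 and its kinase partner Cdk6 one of 0.23 ± 0.24. Among pocket proteins, which hold E2F in check, Rbl1 had a log2 difference of 2.14 ± 0.25 (with cycling values of 117 to 303 CPM against 36.2 to 64.8 CPM). Rb1 stood at -0.21 ± 0.22, Rbl2 at -0.04 ± 0.31 and the inhibitor Cdkn1b at 0.27 ± 0.32. Of the E2F and MuvB list, the MuvB subunit Lin9 stood at 1.69 ± 0.29 and the E2F dimer partner Tfdp1 at 1.56 ± 0.30, compared with 0.22 ± 0.31 for E2f3 and 0.26 ± 0.25 for Lin52.

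Outside the cell-cycle lists, 5042 genes were tested and 197 passed (3.91%), of which 119 were higher (2.36%) and 78 lower (1.55%) in cycling microglia. The 10 higher genes with the smallest adjusted p included several with known roles in division or DNA repair. They are given as a description with no p, since nuclei were picked on division genes and some of these genes passed the count filter through the cycling nuclei alone. Lockd (chr6:134929092-134956798, plus strand, GENCODE M21 on GRCm38), a long non-coding RNA gene downstream of Cdkn1b (chr6:134920401-134925513, plus strand), measured 194, 134 and 238 CPM in cycling microglia of saline replicates 1, 2 and 6 and 304, 235 and 402 CPM in IL-27 replicates 4, 5 and 10. It ranged from 0 to 9.65 CPM in non-cycling microglia, with no overlap (log2 difference 5.67 ± 0.42). Cip2a, an inhibitor of the phosphatase PP2A, ranged from 50.1 to 145 CPM against 1.54 to 8.45 CPM (log2 difference 4.63 ± 0.39). Bora, an activator of Aurora A and Plk1, had a log2 difference of 3.68 ± 0.34 and Bard1, the partner of Brca1, one of 3.71 ± 0.35. Cep128, a centriolar protein, was higher by 2.68 ± 0.21 and Ccdc18 by 4.32 ± 0.42. Depdc1b had 38 UMIs in cycling and 4 in non-cycling microglia, an 88.3-fold ratio of pooled levels. Its exact 95% interval of 31.8 to 341 does not cover the spread between nuclei or libraries. Lmnb1, the B-type lamin, also among the 119, was higher by 3.06 ± 0.34 and was chosen after its value was seen.

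Of the other 3 leading genes, each shares its locus with another gene on the opposite strand, and whether counting used the strand is not given in the sources used here. Ogn (chr13:49608046-49624501, plus strand, GENCODE M21 on GRCm38), which encodes an extracellular matrix proteoglycan, lies inside Cenpp (chr13:49464023-49652785, minus strand), a kinetochore gene that was itself higher by 4.17 ± 0.26. Ogn was higher by 4.16 ± 0.38, and its neighbour Aspn (chr13:49544443-49567565, plus strand), also inside Cenpp, by 4.18 ± 0.44. Efcab11 (4.68 ± 0.36) and Gm47207 (5.17 ± 0.47) overlap each other on opposite strands. The source of the reads at these pairs cannot be told apart. The neuronal adhesion genes Lsamp, Nlgn1 and Adgrb3 and the channel regulator Fam155a were also among the higher genes, with log2 differences of 1.02 to 1.20. Each was instead called lower when predicted doublets were removed (-2.81 to -1.88, edgeR adjusted p 6.65e-06 to 0.00629). The same held when nuclei more than 2 median absolute deviations (MAD) from the median count were left out (-2.05 to -1.29, edgeR adjusted p 0.00172 to 0.041). In saline replicate 2, 251 of 253 Lsamp UMIs of the cycling microglia lay in 1 nucleus, a predicted doublet of 42583 UMIs.

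**Figure D4:**
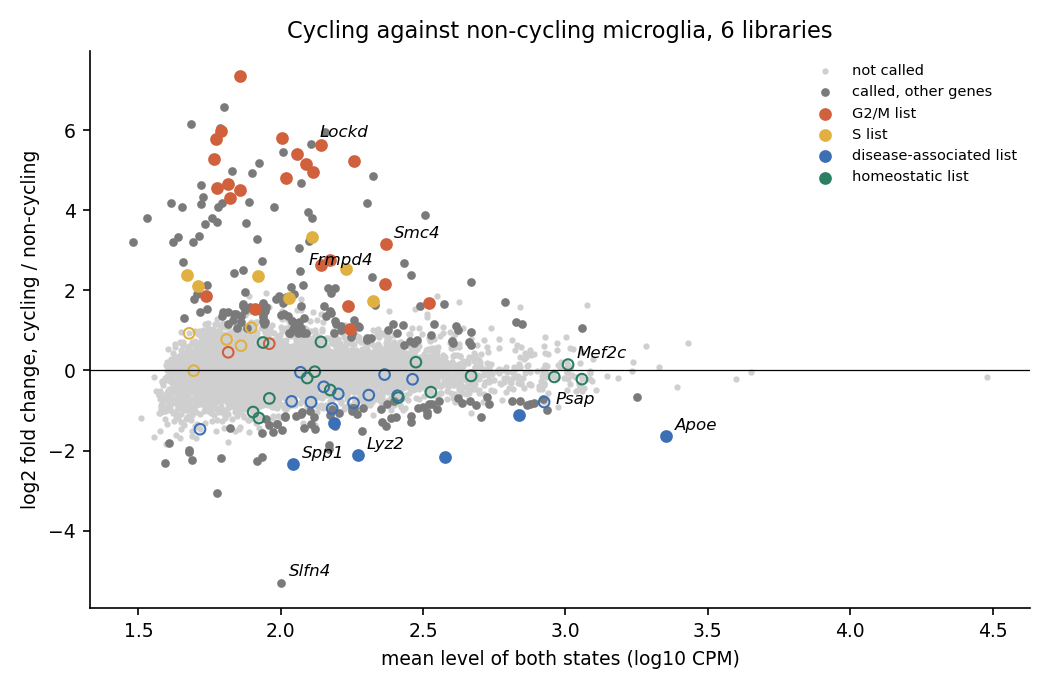
Log2 difference between cycling and non-cycling microglia against the mean level of both states (log10 CPM) for the 5123 genes tested. Filled larger symbols passed the threshold and open ones did not. Called G2/M and S genes lie above 0 and reach 7.35, called disease-associated genes lie below 0, and the strongest lower gene, Slfn4, lies at -5.29.

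Disease-associated genes mark the state that microglia are known to enter around dying neurons. Of 19 tested genes on this list, 6 were lower in cycling microglia (against 1.52% of all genes), none was higher and all 19 log2 differences were negative, with a median of -0.79 against -0.02 over all genes. None of 10 tested was called against non-cycling microglia matched on UMI count, and 1 of 15 was called without nuclei that held monocyte and border macrophage markers. Over all genes, 28 and 65 were called in these settings, against 257 in the main comparison. Spp1, which encodes the secreted protein osteopontin, measured 36.3, 33.4 and 23.8 CPM in cycling microglia of saline replicates 1, 2 and 6 and 16.9, 10.7 and 90.7 CPM in IL-27 replicates 4, 5 and 10. In non-cycling microglia it measured 95.1, 207 and 134 CPM in the saline libraries and 124, 146 and 411 CPM in the IL-27 libraries. The ranges did not overlap (log2 difference -2.33 ± 0.32, edgeR adjusted p = 0.000232). Apoe, the lipid carrier apolipoprotein E, ranged from 418 to 1739 CPM in cycling and from 2582 to 4345 CPM in non-cycling microglia (-1.64 ± 0.26, edgeR adjusted p = 0.00132). The lysozyme gene Lyz2 fell by 2.11 ± 0.33 on the log2 scale (edgeR adjusted p = 0.000891). Axl, a receptor for apoptotic cells, fell by 1.32 ± 0.26 (edgeR adjusted p = 0.00788), and the lysosomal protease Ctsb by 1.10 ± 0.20 (edgeR adjusted p = 0.00428).

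The sixth gene, Gpnmb, a glycoprotein of phagocytic cells, was uneven. It measured 363, 33.4 and 0 CPM in cycling microglia of saline replicates 1, 2 and 6 and 304, 150 and 0 CPM in IL-27 replicates 4, 5 and 10, against 345 to 858 CPM in non-cycling microglia (-2.15 ± 0.56, edgeR adjusted p = 0.0427), and its call was lost when any of saline replicates 2 and 6 or IL-27 replicates 5 and 10 was left out (adjusted p 0.0584 to 0.14). Ctsd, a further lysosomal protease, missed the threshold (-0.79 ± 0.22, edgeR adjusted p = 0.0512), but was called in 7 other settings, among them without predicted doublets (-0.62, edgeR adjusted p = 0.0191) and without saline replicate 2 (-0.91, edgeR adjusted p = 0.0237). Trem2, the receptor for lipids and debris (-0.79 ± 0.28, edgeR adjusted p = 0.129), and its adaptor Tyrobp (-0.41 ± 0.28) also missed the threshold.

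Summed over the list, the disease-associated genes were lower in cycling than in non-cycling microglia of all 6 libraries. The sums were 4336, 3041 and 5663 CPM in cycling microglia of saline replicates 1, 2 and 6 and 4475, 3740 and 4183 CPM in IL-27 replicates 4, 5 and 10. In non-cycling microglia they ran from 7141 to 12110 CPM. The lowest value of the non-cycling sums thus lay above the highest of the cycling ones.

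Of the lower genes outside the lists, Psap, the precursor of the saposins that activate lysosomal lipid hydrolases, fell by 1.0 ± 0.16 on the log2 scale (edgeR adjusted p = 0.00145). Mpeg1, a pore-forming protein of macrophages, fell by 1.38 ± 0.22 (edgeR adjusted p = 0.000972), and Sat1, which degrades polyamines, by 1.15 ± 0.17 (edgeR adjusted p = 0.000687). Pnpla7, a lysophospholipase, fell by 1.28 ± 0.24 (edgeR adjusted p = 0.00458). Chosen after their values were seen, Mertk, a receptor for engulfment of dying cells, fell by 0.86 ± 0.19 (edgeR adjusted p = 0.0157), and the lysosomal enzymes Ctsh, Ctsa, Lgmn and Ctss and the complement gene C1qa were also lower. Of the Schlafen family, Slfn4 had 2 UMIs in cycling and 789 in non-cycling microglia, a ratio of pooled levels of 0.0236 (exact 95% interval 0.00285 to 0.0854). That interval does not cover the spread between nuclei or libraries. In non-cycling microglia of saline replicate 2, 23 of 145 Slfn4 UMIs lay in 1 nucleus. Slfn5 fell by 1.86 ± 0.36 (edgeR adjusted p = 0.0058).

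Markers of other macrophages, mitochondrial messages and depth moved with these results. A list of 10 genes of monocytes and border macrophages, which shares Lyz2 with the disease-associated list, stood at 3.02 UMIs per 10,000 in cycling and 9.88 in non-cycling microglia, and ranged from 0.835 to 7.61 and from 7.54 to 11.9 per 10,000 over the libraries. At least 1 UMI of it was found in 51.3% of cycling and 67.5% of non-cycling microglia, and Cd163, Lyve1 and Pf4 were at 0 in the cycling nuclei. After nuclei with 2 or more such UMIs were left out, the disease-associated gene still called was Apoe (-1.56, edgeR adjusted p = 0.00331) and the list's median was -0.70. Cycling microglia were also deeper, with a median of 3361 to 4044 UMIs per library against 2056 to 2524. Against non-cycling microglia matched on UMI count, the median of the 10 disease-associated genes that could be tested was -0.80. Under that matching Apoe stood at -0.92 (edgeR adjusted p = 0.186), while Sat1 (-1.02) and Pnpla7 (-1.16) were called (edgeR adjusted p = 0.0282 each). Mpeg1 was not called in either setting (-0.67 under matching and -0.92 without the marked nuclei), nor was Psap under matching (-0.43). Without the marked nuclei, Axl (-1.11, edgeR adjusted p = 0.201) and Slfn5 (-1.66, edgeR adjusted p = 0.0883) were not called, compared with -1.32 and -1.86 over all nuclei. Apoe is also a gene of Muller glia. A list of 14 Muller genes that includes Apoe stood at 17.5 UMIs per 10,000 in cycling and 41.0 in non-cycling microglia, and Apoe alone at 1091 and 3219 CPM over the pooled nuclei. The assigning markers Slc1a3 and Abca8a together stood at 0.796 and 0.841 per 10,000. Mitochondrial messages moved too. mt-Nd4 was lower by a log2 difference of -1.16 ± 0.28 (edgeR adjusted p = 0.0242) in 6 of 6 libraries and mt-Nd2 by -0.84 ± 0.22 (edgeR adjusted p = 0.0443) in 5 of 6, and the mean mitochondrial share per nucleus was 0.397 to 1.06% in cycling and 0.574 to 0.912% in non-cycling microglia. The part of these markers, of mitochondrial messages and of depth in the result was otherwise not tested.

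None of 15 tested homeostatic genes of microglia passed, against 5.02% of all genes, so nothing is read from that count. Their median log2 difference was -0.19, against -0.02 over all genes. Without predicted doublets, 1 of 16 was called higher and the median was 0.03. With no filter on low counts, 4 of 18 were called lower and the median was -0.47, against -0.45 over all genes. Over all genes, 373 and 681 were called in either direction in these settings. The shares by direction are not given, so nothing is read from these counts either. P2ry12, the purine receptor of surveying microglia, stood at 0.21 ± 0.18 (edgeR adjusted p = 0.586) and Cx3cr1, the fractalkine receptor, at -0.14 ± 0.21. Mef2c, a transcription factor of this state, stood at 0.15 ± 0.16. The summed level ran from 3158 to 6877 CPM in cycling and from 5233 to 6314 CPM in non-cycling microglia, and was higher in cycling microglia of 3 libraries and lower in the other 3. Csf1r, which helped to assign microglia, is on this list.

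Of 12 tested receptors and ligands of microglial growth signals, none passed, with a median of -0.19. Over all genes 5.02% passed, so nothing is read from a count of 0 in 12. Csf1r, the receptor for CSF-1 and IL-34, is among the 12 and stood at -0.54 ± 0.27, a value given without a test because the gene helped to assign microglia. Igf1 stood at -0.95 ± 0.37 (edgeR adjusted p = 0.177) and its receptor Igf1r at 0.11 ± 0.22. The transcription factor Runx1 stood at 0.09 ± 0.20.

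Interferon-response genes had a median of -0.43 over 32 tested genes, against -0.02 over all genes, and 30 of the 32 had a negative log2 difference. Parp14, an ADP-ribosyltransferase, was the only 1 of them to pass (-0.96 ± 0.19, edgeR adjusted p = 0.00802). Over all genes 1.52% were called lower, so nothing is read from that count. With no filter on low counts, 11 of 49 were called lower, and the median was -0.71 against -0.45 over all genes. Over all genes, 681 were called in either direction in that setting. The share called lower is not given, so nothing is read from this count either. Rnf213 stood at -0.19 ± 0.25 and Trim30a at -0.30 ± 0.21. The summed level in cycling microglia was 6783, 2757 and 5734 CPM in saline replicates 1, 2 and 6 and 4340, 6304 and 7875 CPM in IL-27 replicates 4, 5 and 10. These values overlapped between treatments and also overlapped the non-cycling sums of 5435 to 9537 CPM. Within libraries, the sum was lower in cycling microglia in 5 of 6. Parp14 was not called against non-cycling microglia matched on UMI count (-0.63, edgeR adjusted p = 0.285).

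**Figure D5:**
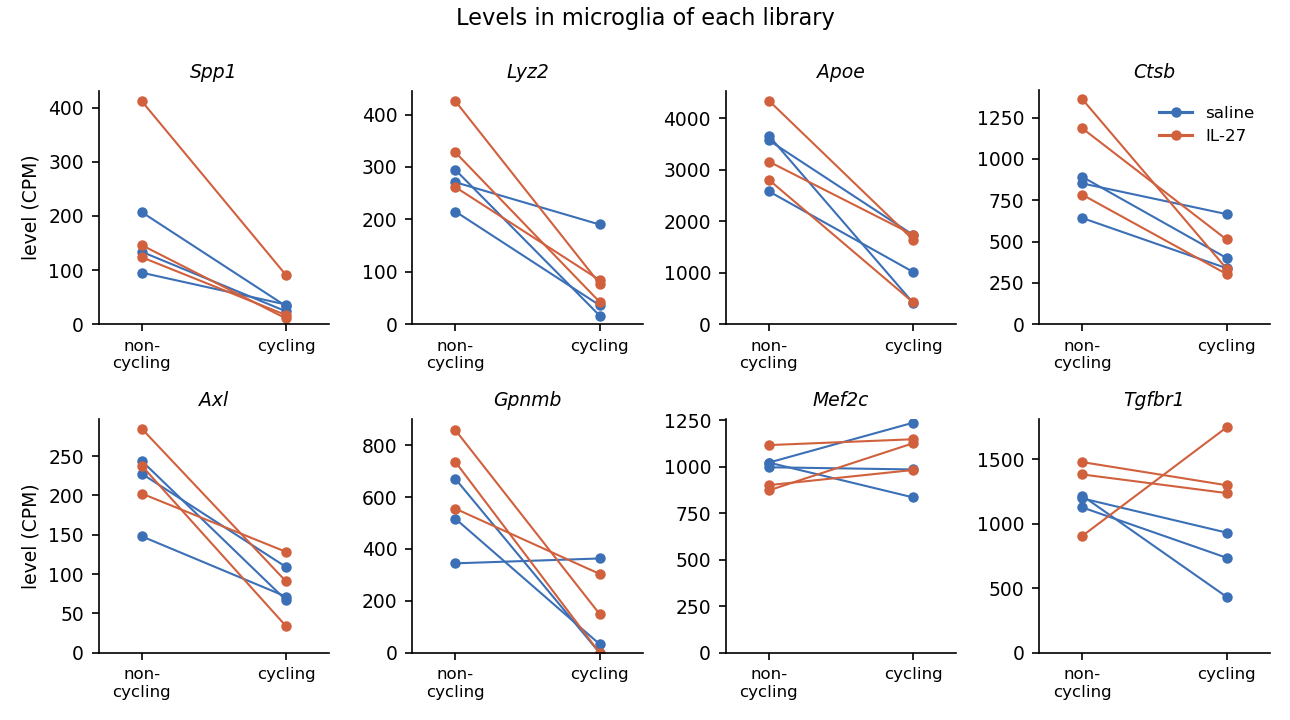
Levels (CPM) in non-cycling and cycling microglia of each library, joined by library and coloured by treatment, for the 6 called disease-associated genes and the homeostatic genes Mef2c and Tgfbr1. Spp1, Lyz2, Apoe, Ctsb and Axl fall in all 6 libraries and Gpnmb in 5, whereas Mef2c rises in 4 and Tgfbr1 in 1.

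Frmpd4, a neuronal scaffold gene that also served to assign ciliary-like nuclei, was chosen after its value was seen. It had a UMI in 21 of 76 cycling microglia (27.6%) and in 62 of 1329 non-cycling microglia (4.67%), compared with 94 of 4538 non-cycling Muller glia (2.07%), whose median depth of 4435 UMIs was above that of the cycling microglia (3884). The gene is described without a test, since it took part in assigning types. It measured 109, 66.8 and 333 CPM in cycling microglia of saline replicates 1, 2 and 6 and 67.5, 331 and 285 CPM in IL-27 replicates 4, 5 and 10, against 26.6 to 46.3 CPM in non-cycling microglia. The ranges did not overlap, but the counts were uneven between nuclei, and in saline replicate 6 a single nucleus held 12 of 14 UMIs. A separate list of 11 such genes stood at 5.4 UMIs per 10,000 in cycling and 2.07 in non-cycling microglia, with a UMI in 26.3% and 22.3% of nuclei. Within that list, Reln had 91 UMIs in 7 and Csmd3 93 UMIs in 10 of the 76 cycling microglia, while Otx1, Wfdc1, Zic1 and Bmp4 were at 0. Fbln1, the other assigning marker, had a UMI in 1 cycling and 22 non-cycling microglia. The part of ciliary-like genes in the level of Frmpd4 was not tested.

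Markers of neurons overlapped between the states, at 22.7 to 42.6 UMIs per 10,000 in cycling and 25.5 to 43.2 in non-cycling microglia over the 6 libraries. Genes of T and NK lymphocytes had 0.77 UMIs per 10,000 in cycling and 0.11 in non-cycling microglia, and Cd3e, Cd3g, Cd8a, Trac and Nkg7 were at 0 in the cycling ones. Skap1 had 14 UMIs there, Gzma 7, Bcl11b 5, Themis 3, Cd3d 2 and Cd4 1. Most of these UMIs lay in 1 nucleus of saline replicate 1, which held 18, and 1 of IL-27 replicate 10, which held 10. Each of these also held 1 Csf1r UMI and stayed among the microglia, whereas Csf1r was at 0 in the 7 cycling lymphocyte-marked nuclei. Their type is therefore uncertain. Predicted doublets, the 8% of nuclei of each library with the highest doublet score, made up 14 of 76 cycling (18.4%) and 161 of 1329 non-cycling microglia (12.1%). Without them, 214 of the 239 of the 257 genes that could still be tested were called in the same direction.

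The 17 cycling ciliary-like nuclei also held genes of this type that did not assign them. Reln, a secreted glycoprotein, was detected in 14, the adhesion gene Csmd3 in 15 and Zic1, a transcription factor of the ciliary margin, in 11. These 3 genes were detected in 91.4%, 94.6% and 70.7% of the 699 non-cycling ciliary-like nuclei. The rest of the list was rarer, with Tgfb2 in 10, Otx1 in 5, Zic2 in 4 and Bmp4 and Slc4a4 in 3 each. Wfdc1 and Aldh1a3 were in 2 each and Nox4 in 1. Apart from Tgfb2 (71.7%), this rest was also found in only 8.30 to 31.8% of non-cycling nuclei. The list of 11 such genes stood at 32.8 UMIs per 10,000 in cycling and 42.7 in non-cycling nuclei. In cycling nuclei Reln gave 9.06 and Csmd3 14.2 of it. The list of 14 Muller genes stood at 29.5 per 10,000 in cycling and 41.0 in non-cycling ciliary-like nuclei. The paper reports Frmpd4, Fbln1, Reln and Csmd3 as raised in a Muller glia subpopulation specific to saline. Whether these are the same nuclei was not tested. Of 22 reprogramming and progenitor genes, 7 had a UMI in cycling nuclei and 15 had none, Neurod1 and Hes6 among the latter (10.0% and 4.86% of non-cycling nuclei). The following pair was chosen after its values were seen. Stmn1, a tubulin-binding protein of dividing and immature cells, had a UMI in 14 of 17 cycling nuclei and in 92 of 699 non-cycling ones (13.2%). Sox11, a transcription factor of progenitors, had one in 7 of 17 and 66 of 699 nuclei. The median depth was 5214 UMIs in cycling and 3790 in non-cycling nuclei, and no test was made because every library held fewer than 10 cycling nuclei of this type.

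The 3 cycling Muller nuclei came from saline replicates 1 and 2 and IL-27 replicate 4. They held 4, 8 and 8 of the rule genes, and 10029, 11819 and 7616 UMIs against a median of 4435 in non-cycling Muller glia. They were assigned by Slc1a3, the glutamate transporter of Muller glia (41 UMIs in total), and Abca8a. The separate list of 14 Muller genes stood at 37.7 UMIs per 10,000 in these nuclei and 88.3 in non-cycling Muller glia. Of the fixed reprogramming and progenitor genes, Hes6, Sox4, Sox11 and Stmn1 had 1 UMI each. The nucleus of saline replicate 2 was among the predicted doublets.

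The 7 cycling nuclei with lymphocyte markers all carried Skap1, an adaptor of the T-cell receptor, with 67 UMIs in total. Bcl11b, a transcription factor of T cells, was detected in 4, and Cd3g, Cd3d and Nkg7 in 2 each. Such nuclei were few in the series, 54 in all, and 3 cycling ones came from saline and 4 from IL-27 libraries.

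Whether the difference between cycling and non-cycling microglia itself changed with IL-27 was tested as an interaction of treatment and state. Of 5123 genes, 1 passed an adjusted p of 0.05 (0.0195%), with 190 at an unadjusted p under 0.05 (3.71%). The gene was Ptprk, a receptor tyrosine phosphatase. It measured 0, 16.7 and 23.8 CPM in cycling microglia of saline replicates 1, 2 and 6 and 591, 288 and 272 CPM in IL-27 replicates 4, 5 and 10, against 112 to 191 CPM in non-cycling saline and 28.2 to 62.6 CPM in non-cycling IL-27 microglia (log2 interaction 6.77 ± 0.73, edgeR adjusted p = 0.00132). In each IL-27 library, however, nearly all UMIs came from 1 nucleus, 35 of 35, 26 of 27 and 19 of 21. These nuclei held 25071, 17414 and 13200 UMIs, and all of them were among the predicted doublets. With predicted doublets removed, the gene had too few counts to be tested. DESeq2 called 3 genes in the same comparison. Expression of single genes was not compared between IL-27 and saline within cycling microglia alone, since saline replicates 2 and 6 held 6 and 9 such nuclei.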

How the data were processed

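The authors isolated nuclei from flash-frozen retinas with the Chromium Nuclei Isolation Kit and made 3′ libraries. According to the study's methods, reads were processed with Cell Ranger 9.0.1 on a mouse reference of 10x Genomics, and nuclei were filtered in Seurat 5.2.1, whereas the header of the deposited matrices names Cell Ranger 8.0.1. The genome build, annotation and strand setting are not given in the sources used here, and gene models of GENCODE M21 (GRCm38) held 99.6% of the 32285 feature IDs. The deposited values are UMI counts per gene and nucleus, not normalized, in 1 matrix per library (56634 barcodes in all), filtered to cells by Cell Ranger but not yet by the study's limits.

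The study's limits (more than 500 UMIs, at least 200 genes, under 5% mitochondrial UMIs) were applied here and left 56205 nuclei. Nuclei were clustered without cell-cycle genes (scanpy 1.11.5, 2000 variable genes, 25 components, 20 neighbours, Louvain, 43 clusters), and a type required both its cluster and its markers (at least 2 UMIs and 4 per 10,000). Doublets were kept in the main analysis. Scrublet's own threshold called from 0 to 9.74% of a library, so the 8% of nuclei with the highest score in each library were removed as an alternative. Samples were grouped by their labelled treatment.

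UMI counts were summed per library and state and tested with edgeR 4.0.16 (quasi-likelihood, library as a block, genes kept by filterByExpr with a minimum count of 10, R 4.3.3), with Benjamini-Hochberg adjustment and a threshold of 0.05. The 8 rule genes were left out of the tests. A fold change is cycling over non-cycling. Shares were compared between treatments by exact permutation over libraries. On simulated counts for this comparison (5102 genes), the test recovered 50 of 50 genes raised 8-fold, 48 of 48 raised 4-fold and 31 of 50 raised 2-fold. It recovered 37 of 37 genes lowered to 0.25-fold and called 1 of 4918 unchanged genes. The simulated sums were drawn independently for each gene, without single nuclei or doublets, so these rates do not cover errors from a dominant nucleus or a doublet. Alternatives were DESeq2 1.42.0, its size factors, other count filters, other definitions of cycling and non-cycling nuclei, depth matching and leaving out each library.

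Genes named in the text are up to 4 per cell-cycle role with the highest level in cycling nuclei, up to 10 per direction outside those lists with the smallest adjusted p that moved the same way in 6 libraries, and from the other lists the called members (up to 6) and the 2 with the highest level. Further genes are named as examples, and those chosen after their values were seen are marked. The members and lists were chosen with earlier results of these data known. Muller lists were not tested, since only 3 cycling Muller nuclei were found.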

Additional observations from a re-analysis of the deposited data

Results flagged for a closer look

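Ptprk was the 1 result for which the difference between cycling and non-cycling microglia itself differed between the treatments (interaction of treatment and state, log2 6.77 ± 0.73, edgeR adjusted p = 0.00132). Its cycling levels were 0 to 23.8 CPM in the saline libraries and 272 to 591 CPM in the IL-27 libraries. The UMIs of the IL-27 libraries came almost wholly from 1 nucleus in each, which was a predicted doublet. The gene could not be tested with predicted doublets removed, with nuclei of outlying depth left out, with a minimum count of 30 or with depth matching. In the remaining alternatives it passed, with adjusted p from 3.95e-14 to 0.0272.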

How the results depend on the processing

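The number of genes called between cycling and non-cycling microglia was 257 and depended most on the count filter and on which nuclei were compared. It was 681 with no filter on low counts, which moved the median log2 difference of all genes from -0.02 to -0.45, and 98 with a minimum count of 30. It was 28 against non-cycling microglia matched on UMI count (25 of the 96 testable genes of the 257), 65 without nuclei carrying monocyte and border macrophage markers (an alternative added after seeing the data, with fewer genes tested) and 397 with no library block. Leaving out 1 library gave 166 (without IL-27 replicate 5) to 267, and DESeq2 gave 278. All tested genes of the 257 kept their direction in these settings, except Adgrb3, Fam155a, Lsamp and Nlgn1 without doublets or without nuclei of outlying depth. The interaction of treatment and state, with 1 call, gave 3 with DESeq2, 29 with no filter, 59 with at least 4 rule genes, 3 without monocyte-marked nuclei and 0 with a minimum count of 30, doublets removed, outlying nuclei left out or depth matching. Leaving out 1 library gave 1 to 21 (21 without saline replicate 2). The cause was not tested.

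The IL-27 minus saline difference in cycling share of all nuclei ran from -0.00886 to 0.059 points when 1 library was left out. For ciliary-like nuclei, of which IL-27 replicates 4 and 5 held 10 and 5, the difference is a description only. It was -0.246 points, turned to 0.101 after thinning and 0.39 with a mitochondrial limit of 1%, and ran from -1.82 to 0.54 when 1 library was left out. For Muller glia it turned from -0.0389 to 0.00558 points without doublets. With 3 against 3 libraries no share test can pass 0.05, so these p-values say nothing about stability. A further 1116 values cover 65 of the named genes, without Adgrb3, Fam155a, Lsamp and Nlgn1, which are given above. Of these values, 1069 kept direction and side of the threshold, 18 lost the call (Pola1 under depth matching among them), 10 gained it and 19 changed sign. The last were all uncalled genes near 0. With no filter they were Cdk6 (-0.0413), E2f3 (-0.0477), Lin52 (-0.0142), Mef2c (-0.13) and Runx1 (-0.18). With depth matching they were Rb1 (0.0522), Tgfbr1 (0.0359) and Rnf213 (0.15). Without doublets they were Tgfbr1 (0.0307) and Rnf213 (0.0081), and without outlying nuclei Tgfbr1 (0.0294). Without monocyte-marked nuclei they were Mef2c (-0.12) and Rnf213 (0.0275). Rbl2 stood at 0.0709 with types from clusters alone and 0.0792 without nuclei carrying neuronal markers. With 1 library left out, Rbl2 ran from -0.275 to 0.0911 (above 0 without IL-27 replicate 4 or 10), E2f3 from -0.0071 to 0.355 (below 0 without saline replicate 2) and Runx1 from -0.10 to 0.177 (below 0 without saline replicate 1). No paired analysis was possible because the saline and IL-27 libraries share no replicate number. The planned tests of gene expression in Muller glia, between Muller glia and microglia, and of IL-27 within cycling nuclei were not run, as too few cycling nuclei were found. Counts of 6 to 19 cycling microglia per library limit the precision of every share and sum.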
